A study of Mus musculus with 6 samples.

Results

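The 45 genes described here carry or process the antigens that cells show to T cells, out of 17714 genes in the deposited table. They were taken by name: every symbol of the major histocompatibility complex (MHC) that starts with H2-, and 17 genes of peptide supply, loading and regulation. Of the 45, 2 are classical class I genes, 16 non-classical class I genes, 9 class II genes (4 chains and 5 peptide editors), 6 partners of class I, 5 subunits of the immunoproteasome and its activator, 2 partners of class II, 2 transactivators, 2 class I-like genes outside the MHC, and 1 (H2-Ke6) encodes no MHC molecule. RNA came from wild-type mouse heart samples labelled lymphatic endothelial cells, in 3 libraries after myocardial infarction (MI) and 3 after sham operation, all at day 3. The labels name both heart tissue and primary cardiac endothelial cells, name serum-containing culture medium, and give no sorting step, strain, sex or age. Nothing says that the libraries came from separate animals, so a p-value speaks of how far these libraries spread and not of mice.

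Class I molecules, a heavy chain with beta-2 microglobulin, show peptides cut in the cytosol by the proteasome and carried into the endoplasmic reticulum by the TAP transporter. The classical heavy chains H2-K and H2-D show them to CD8 T cells, and non-classical ones have more limited expression or specialised roles. Class II molecules, made by dendritic cells, B cells, macrophages and, after interferon gamma, by endothelium, show peptides from engulfed protein to CD4 T cells. Their invariant chain (Cd74) is cut away by lysosomal proteases, and H2-DM then exchanges the remaining fragment for peptide. NLRC5 and CIITA switch on class I and class II genes.

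Upstream stretches of the classical genes are shown beside those of non-classical genes that did and did not pass the test, to show which letters they share. RefSeq promoter windows of GRCm38.p6 (C57BL/6J sequence, 250 bases before to 50 after a transcript start) were at hand for 35 of the 45 genes. Capitals mark matches to the NF-kB motif and to the core of the interferon-stimulated response element (GAANNGAAA), both searched on both strands. The stretches are given 5′ to 3′ on the gene's strand and lie at chr17:34000409-34000482 (minus strand), chr17:35262899-35262972, chr17:35379419-35379492, chr17:35424653-35424726, chr17:35438997-35439070, chr17:35469889-35469962 and chr17:37270088-37270161 (plus strand).
H2-K1: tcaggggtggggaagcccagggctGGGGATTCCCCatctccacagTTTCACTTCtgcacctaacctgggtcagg
H2-D1: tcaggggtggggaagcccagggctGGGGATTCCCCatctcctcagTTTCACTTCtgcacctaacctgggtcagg
H2-Q4: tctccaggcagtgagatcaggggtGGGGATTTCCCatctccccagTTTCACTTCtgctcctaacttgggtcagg
H2-Q6: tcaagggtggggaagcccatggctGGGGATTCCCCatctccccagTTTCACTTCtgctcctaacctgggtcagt
H2-Q7: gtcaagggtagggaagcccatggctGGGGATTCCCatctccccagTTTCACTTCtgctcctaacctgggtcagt
H2-Q10: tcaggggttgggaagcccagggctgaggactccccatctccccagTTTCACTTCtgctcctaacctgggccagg
H2-M3: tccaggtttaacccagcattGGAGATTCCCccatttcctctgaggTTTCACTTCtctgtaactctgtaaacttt
Compared base by base without gaps over 74 bases, H2-D1 shared 73 with H2-K1, H2-Q6 69, H2-Q10 68, H2-Q4 58, H2-Q7 51 and H2-M3 25. A gap between stretches lowers such a count. The response element core was found in 9 of 35 members and in 7.52% of all 32851 windows, and the NF-kB motif in 11 of 35 and in 8.46%. A member counted once if any of its windows matched, whereas the percentages are of single windows (of 27025 genes), so the units differ. All of the 9 but Psme1 are class I H2- genes, related in sequence, so their matches are not independent. H2-T23 and H2-T22 had no match to the response element core in their windows. A match is a run of letters, and binding was not measured.

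The class II control region holds an X box and a Y box (a CCAAT sequence) at a set distance, and is shown for the 2 major chain genes with a window and for H2-Oa and H2-Ob, whose levels moved in opposite directions. Capitals mark the X box core as searched (AGNNAC followed directly by NGATG) and the Y box (ATTGG), on both strands. The stretches lie at chr17:34287852-34287921 (minus strand), chr17:34305758-34305827, chr17:34092286-34092355 and chr17:34238798-34238867 (plus strand).
H2-Aa: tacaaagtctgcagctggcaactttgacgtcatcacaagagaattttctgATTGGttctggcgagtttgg
H2-Eb1: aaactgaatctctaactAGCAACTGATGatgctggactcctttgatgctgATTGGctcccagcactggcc
H2-Oa: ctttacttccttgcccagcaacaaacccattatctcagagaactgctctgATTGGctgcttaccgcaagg
H2-Ob: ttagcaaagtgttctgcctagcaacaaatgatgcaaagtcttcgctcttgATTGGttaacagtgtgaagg
H2-Oa had its X box core match at -141 relative to the transcript start, outside the stretch shown and well away from its Y box match at -43. The letters agcaac, which begin the marked core of H2-Eb1, also stand unmarked before the Y box in H2-Oa and H2-Ob. The searched letters are strict, so a stretch without a marked core may still hold an X box. The X box core was found in 5 of 35 members and 0.968% of all windows, and the Y box in 25 of 35 and 37.4%. Members and windows were counted as above. Tap1 and Psmb9 are transcribed away from each other from starts 225 bases apart. The window at chr17:34187306-34187605, written on the Tap1 strand, holds both starts, and its capitals mark the bases between them.
Tap1 and Psmb9: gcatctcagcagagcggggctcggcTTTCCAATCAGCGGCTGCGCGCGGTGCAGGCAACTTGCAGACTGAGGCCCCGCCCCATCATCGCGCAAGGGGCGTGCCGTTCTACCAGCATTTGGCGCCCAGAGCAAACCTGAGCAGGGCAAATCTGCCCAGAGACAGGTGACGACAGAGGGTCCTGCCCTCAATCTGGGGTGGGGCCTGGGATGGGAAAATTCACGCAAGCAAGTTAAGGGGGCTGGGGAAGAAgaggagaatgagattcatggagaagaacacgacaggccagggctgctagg
Neither the response element core nor the NF-kB motif was found in that window.

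The libraries held 21154342 to 21689333 estimated counts in MI and 3206732 to 3591473 in sham, so depth followed the group. Of 13370 genes tested with edgeR's quasi-likelihood test, 73.3% were called at a Benjamini-Hochberg adjusted p below 0.05, and calls among the members must be read against that. Log2 fold changes and adjusted p-values below come from this fit unless another is named. MI 1 stood apart from the other MI libraries (chi-square per gene 37.3 and 22.5 against MI 2 and MI 3, and 4.28 between those). The labelled cell type was weakly marked: Prox1, the regulator of lymphatic identity, had 0.41, 0.18 and 0.26 TPM in MI 1 to 3, against 1.65, 1.74 and 1.90 TPM in sham 1 to 3. Of 7 lymphatic markers 6 fell and 1 rose, summing to 217 to 237 TPM in MI and 333 to 370.0 TPM in sham. The one that rose, Pdpn, which encodes podoplanin, had 201, 187 and 183 TPM in MI 1 to 3, against 5.99, 4.18 and 5.51 TPM in sham 1 to 3, and the other 6 summed to 33.3 to 35.7 TPM in MI and 327 to 365 TPM in sham. The 8 pan-endothelial markers summed to 815 to 868 TPM in MI and 4625 to 4663 TPM in sham, and all 8 fell, whereas the 11 macrophage and monocyte markers summed to 24241 to 25447 TPM in MI and 5978 to 6331 TPM in sham, with 10 higher and 1 lower. Ptprc, the pan-leukocyte surface gene, had 302, 196 and 225 TPM in MI 1 to 3, against 42.4, 41.4 and 40.2 TPM in sham 1 to 3. The 6 cardiomyocyte markers summed to 152 to 185 TPM in MI and 3886 to 3942 TPM in sham, and all 6 fell. Neutrophil markers summed to 1653 to 2048 TPM in MI and 83.2 to 109 TPM in sham, with all 5 tested higher. The 6 fibroblast and mural markers summed to 534 to 593 TPM in MI and 2088 to 2097 TPM in sham, with 1 higher and 5 lower. These marker levels differed between the same groups as the members, and their part in the results was not tested. Fewer cells of a type and less RNA per cell cannot be told apart in such libraries.

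Of the 45 members, 39 had enough counts to be tested, and 22 (56.4%) were called higher and 2 lower (H2-Ob and Tapbpl) in MI, where 36.4% of all genes were called higher, 36.9% lower and 73.3% either way. In TPM, all MI libraries lay above all sham libraries for 18 of the 39 and below them for 10, against 32.6% and 43.0% of all genes tested. The median log2 fold change, MI over sham, was 0.37 over the 39 and -0.01 over all genes tested. Both classical class I genes, 6 of 11 tested non-classical class I genes, 6 of 8 class II genes, both class II partners, both transactivators and 4 of 11 class I partner and immunoproteasome genes were called higher. Direction depended on the scale of the libraries for the small changes: scaled to total counts, which moved the median of all genes to -0.36, 13 members were higher and 13 lower (26.5% and 49.6% of all genes). On deposited TPM with limma, as log2(TPM + 1), 17 were higher and 9 lower of 38 tested, with 31.8% and 42.1% of all genes and a median of all genes of -0.14. Without MI 1, 26 were higher and 4 lower (40.9% and 40.1% of all genes). In all 16 fits 10 members were called higher (H2-D1, H2-K1, H2-Q7, H2-Q10, H2-T-ps, H2-DMa, Ifi30, Tapbp, Tap1 and Nlrc5) and 1 lower (Tapbpl).

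**Figure D1:**
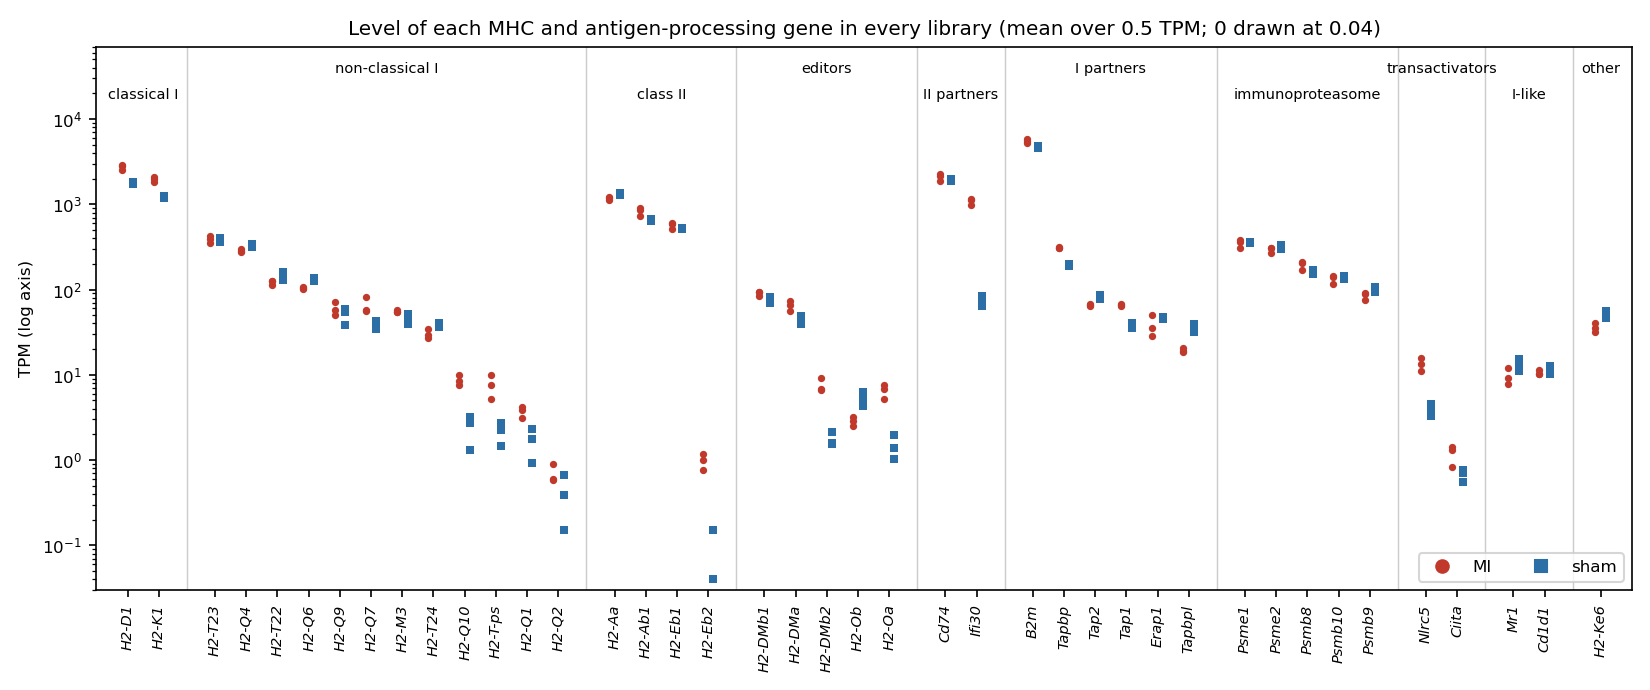
Deposited TPM (a level per transcript length, log axis) of each member with a mean above 0.5 TPM, in 3 MI libraries (circles) and 3 sham libraries (squares), grouped by role. B2m, H2-D1, Cd74 and H2-K1 had the highest levels, and Ifi30 and Nlrc5 showed wide gaps between the groups.

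Classical class I heavy chains rose. H2-D1 (GRCm38.p6 chr17:35263094-35267497) had 2539.8, 2869 and 2809 TPM in MI 1 to 3, against 1813, 1749 and 1780.1 TPM in sham 1 to 3. H2-K1 (GRCm38.p6 chr17:33996012-34000619) had 1831, 1985 and 2064 TPM in MI 1 to 3, against 1231, 1256 and 1197 TPM in sham 1 to 3. All 3 MI libraries lay above all 3 sham libraries for both genes. On the scale of edgeR's fit both rose 1.73-fold, with log2 fold changes of 0.79 ± 0.09 and 0.79 ± 0.09 (SE; adjusted p = 7.64e-06 and 5.68e-06), and scaled to total counts the log2 fold changes were 0.44 for each. The log2 ratio of H2-D1 to H2-K1 was 0.48 ± 0.04 in MI and 0.54 ± 0.05 in sham (SD, n = 3 each), a difference of -0.05 within the spread of the libraries, by an exact two-sided permutation test (p = 0.2; adjusted over 10 ratios, p = 0.2).

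The abundant non-classical class I genes did not pass the test. H2-T23 encodes Qa-1, which binds leader peptides and is read by natural killer cell receptors, and had 356, 426 and 396 TPM in MI 1 to 3, against 398, 386 and 364 TPM in sham 1 to 3. The groups overlapped, with a log2 fold change of 0.21 ± 0.11 (adjusted p = 0.0979) and of -0.15 scaled to total counts. Without MI 1 it was called higher, at a log2 fold change of 0.34. H2-Q4 had 274, 287 and 299 TPM in MI 1 to 3, against 342, 314 and 328 TPM in sham 1 to 3. H2-T22, a ligand of some gamma-delta T cells, had 114, 124.9 and 127 TPM in MI 1 to 3, against 159.9, 129.6 and 144 TPM in sham 1 to 3. For H2-Q4 and H2-T22 all MI libraries lay below all sham libraries in TPM, yet edgeR's fit gave -0.03 ± 0.09 and -0.09 ± 0.11 (adjusted p = 0.763 and 0.476); H2-Q4, H2-T22, H2-Q6 and H2-T24 were called lower when libraries were scaled to total counts or compared in TPM, and H2-Q6 also without MI 2 and with MI thinned to the sham depth. The log2 ratio of H2-T23 to H2-K1, which no library scaling touches, was -2.32 ± 0.09 in MI and -1.68 ± 0.05 in sham, a difference of -0.64. The groups did not overlap, and the exact permutation p of 0.1 is the smallest that 3 against 3 libraries can give (adjusted over 10 ratios, p = 0.111).

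In this class 6 genes rose, and 3 of them (H2-Q10, H2-T-ps and H2-Q1) were scarce. H2-Q7, a gene of the Qa-2 antigen, had 58.1, 80.8 and 56.3 TPM in MI 1 to 3, against 42.9, 41.6 and 34.9 TPM in sham 1 to 3, and its log2 fold change was 0.93 ± 0.18 (adjusted p = 4.89e-04). H2-Q10, known as a secreted class I protein of liver, had 8.38, 7.57 and 9.89 TPM in MI 1 to 3, against 3.21, 2.71 and 1.30 TPM in sham 1 to 3. H2-T-ps had 5.14, 10.0 and 7.58 TPM in MI 1 to 3, against 2.72, 2.25 and 1.47 TPM in sham 1 to 3. The groups did not overlap for these genes, and H2-Q10 and H2-T-ps rose 3.81-fold and 3.82-fold from 22 and 17 counts over the sham libraries (adjusted p = 6.71e-05 and 0.00146). H2-Q1, H2-Q9 and H2-M3, which presents formylated bacterial peptides, were also called higher, at log2 fold changes of 1.29 ± 0.34, 0.42 ± 0.16 and 0.42 ± 0.12. H2-Q9 and H2-M3 were not called scaled to total counts, on TPM or without sham 1, and H2-Q9 also not without MI 3, without sham 2 or with the stricter filter.

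Summed over its 16 genes, the non-classical class had 1072, 1186 and 1159 TPM in MI 1 to 3, against 1219, 1141 and 1148 TPM in sham 1 to 3, and the groups overlapped. The 2 classical genes summed to 4371, 4854 and 4873 TPM in MI 1 to 3, against 3044, 3005 and 2977 TPM in sham 1 to 3, with no overlap. The non-classical share of class I heavy chain TPM was 19.5 ± 0.266% in MI and 28.0 ± 0.557% in sham (SD, n = 3 each), lower in every MI library than in any sham library. No test was made of these sums. Counts can be divided among relatives: of 50-base stretches in the GENCODE M21 transcripts of a gene, 53.5% of those of H2-T22, 36.4% of H2-Q4, 34.97% of H2-Q6, 29.4% of H2-T-ps and 26.5% of H2-Q7 also occurred in another gene, against 9.63% for H2-K1 and 12.8% for H2-D1. No stretches of H2-Q9 were in those transcripts, so its sharing could not be counted, and shares of its relatives such as H2-Q7 leave it out. Values of the Q and T genes are therefore uncertain, and the haplotype of the mice was not given. Too scarce to test were H2-Q2 (45 counts over MI and 6 over sham), H2-M2 (15 and 0), H2-T3 (3 and 2), H2-M5 (3 and 0) and H2-M9 (0 and 2).

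**Figure D2:**
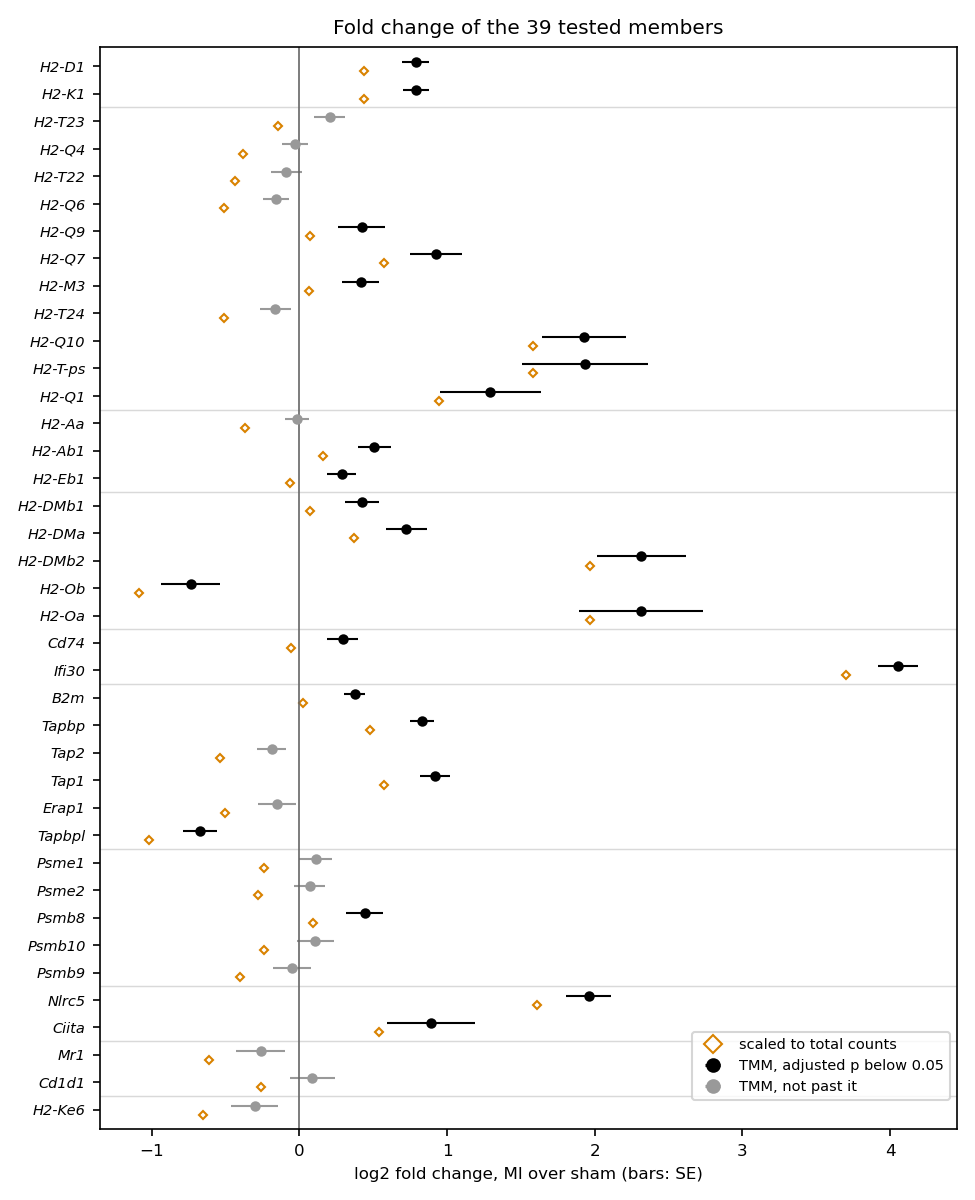
Log2 fold change, MI over sham, of the 39 tested members from edgeR's fit with TMM scaling (circles with SE; black past an adjusted p of 0.05, grey not) and with libraries scaled to total counts (diamonds). Every diamond lies to the left of its circle, and H2-T23, H2-Eb1, Cd74, Psme1, Psme2, Psmb10 and Cd1d1 change side of 0.

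Class II chains kept a high level in both groups. H2-Aa, the alpha chain of I-A, had 1109, 1189 and 1205 TPM in MI 1 to 3, against 1341, 1336 and 1294 TPM in sham 1 to 3. Its log2 fold change was -0.02 ± 0.08 (adjusted p = 0.87), and it was called lower on TPM and scaled to total counts (-0.37, adjusted p = 0.00143). H2-Ab1, the beta chain of I-A, had 734, 908 and 857 TPM in MI 1 to 3, against 641, 676 and 659 TPM in sham 1 to 3. It was called higher (0.51 ± 0.11, adjusted p = 0.00122), but not when libraries were scaled to total counts (0.16, adjusted p = 0.196). H2-Eb1, the beta chain of I-E, had 518, 601 and 594 TPM in MI 1 to 3, against 528, 534 and 514 TPM in sham 1 to 3, with overlapping groups. Its call (0.29 ± 0.10, adjusted p = 0.0198) was lost on either of those scales and in each fit without a library other than MI 1. H2-Eb2, not tested, had 1.00, 1.19 and 0.76 TPM in MI 1 to 3, against 0.15, 0 and 0 TPM in sham 1 to 3, with 71 counts over MI and 1 over sham.

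Summed, the 4 class II chains had 2362, 2698 and 2657 TPM in MI 1 to 3, against 2510.2, 2546 and 2467 TPM in sham 1 to 3, and the groups overlapped. The shares of the 2 I-A chains differed between groups without overlap. H2-Ab1 made up 32.3 ± 1.28% in MI and 26.3 ± 0.639% in sham of class II chain TPM, and H2-Aa 45.5 ± 1.46% in MI and 52.8 ± 0.56% in sham (SD, n = 3 each). The log2 ratio of H2-Eb1 to H2-Ab1 was -0.54 ± 0.05 in MI and -0.33 ± 0.04 in sham, and that of H2-Ab1 to H2-K1 -1.24 ± 0.10 in MI and -0.90 ± 0.04 in sham. Neither ratio overlapped between groups (exact permutation p = 0.1 each, adjusted p = 0.111, n = 3 each). Per unit of Ptprc TPM, class II chain TPM was 11.1 ± 3.01 in MI and 60.7 ± 1.29 in sham, and per unit of Pecam1 TPM, an endothelial junction gene, 12.6 ± 1.37 in MI and 2.67 ± 0.0433 in sham. Classical class I TPM per unit of Ptprc was 20.3 ± 5.24 in MI and 72.8 ± 1.17 in sham, and per unit of Pecam1 23.1 ± 2.22 in MI and 3.2 ± 0.0611 in sham. None of these ratios overlapped between groups, and no test was made of them. Ptprc had a mean of 241 TPM in MI and 41.3 TPM in sham, and Pecam1 204 TPM in MI and 940 TPM in sham. Both markers changed by a larger factor than the class sums, so the markers set the direction of these ratios. The ratios are not levels per cell of a type.

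**Figure D3:**
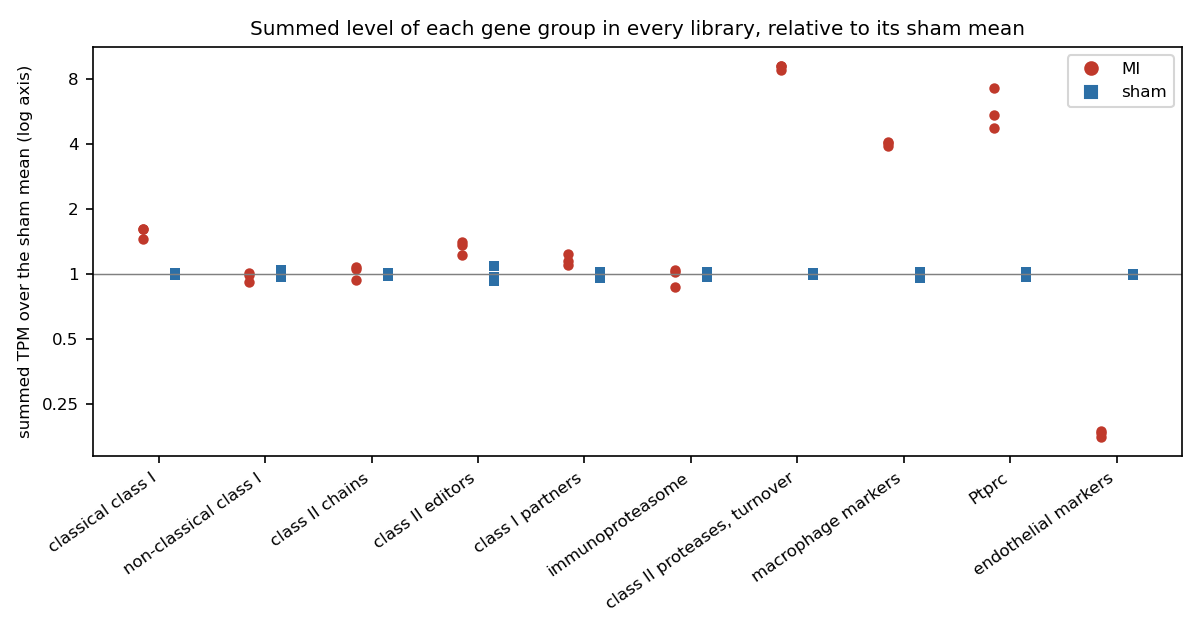
Summed TPM of each gene group in every library, divided by the mean of the sham libraries (log axis; MI circles, sham squares). Class II chains, non-classical class I and the immunoproteasome stayed near 1 in MI, classical class I stood at 1.56 on average, and the macrophage markers and Ptprc stood at 4.03 and 5.83.

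Cd74, the invariant chain that guides class II molecules to endosomes, had 1863, 2272 and 2147 TPM in MI 1 to 3, against 1912, 1976 and 1886 TPM in sham 1 to 3. The groups overlapped, and its call (0.29 ± 0.10, adjusted p = 0.023) was lost scaled to total counts (-0.06), on TPM and without any single library other than MI 1. Relative to H2-Ab1, the log2 ratio of Cd74 was 1.33 ± 0.01 in MI and 1.55 ± 0.03 in sham, lower in every MI library (exact permutation p = 0.1, adjusted p = 0.111, n = 3 each). Ifi30 had the largest log2 fold change of the 39 tested members. It encodes GILT, a lysosomal reductase that opens disulphide bonds in engulfed protein, lies at GRCm38.p6 chr8:70762773-70766663, and had 983, 1154 and 1117 TPM in MI 1 to 3, against 84.7, 64.9 and 70.1 TPM in sham 1 to 3. It rose 16.6-fold (4.05 ± 0.14, adjusted p = 1.67e-10), and the log2 ratio of Ifi30 to H2-Ab1, chosen after values were seen, was 0.38 ± 0.04 in MI and -3.18 ± 0.24 in sham. Per unit of TPM of Cd68, a lysosomal protein of macrophages, Ifi30 was 0.533 ± 0.0127 in MI and 0.464 ± 0.0504 in sham (SD, n = 3 each), with overlapping groups. The result depended on the marker chosen. Per unit of Ptprc TPM, Ifi30 was higher in MI, at 4.70 ± 1.33, than in sham, at 1.77 ± 0.216. Per unit of TPM of Itgax, an integrin of dendritic cells and some macrophages, it was lower, at 23.2 ± 2.86 in MI and 43.0 ± 6.25 in sham. Neither of these ratios overlapped between groups, and no test was made of them. Class II chain TPM per unit of Cd68 was 1.26 ± 0.0201 in MI and 15.9 ± 0.815 in sham, with no overlap. Cd68 itself had a mean of 2034 TPM in MI and 157 TPM in sham, which sets the direction of that ratio.

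Among the peptide editors 4 rose and 1 fell. H2-DMa, the alpha chain of H2-DM, had 56.7, 72.7 and 66.7 TPM in MI 1 to 3, against 46.5, 48.5 and 39.99 TPM in sham 1 to 3. It rose in every fit (0.72 ± 0.14, adjusted p = 5.36e-04). H2-DMb1, a beta chain, had 83.3, 92.9 and 93.5 TPM in MI 1 to 3, against 69.3, 82.8 and 73.3 TPM in sham 1 to 3, and its call (0.42 ± 0.12, adjusted p = 0.00653) was lost scaled to total counts. H2-DMb2, another beta chain, had 9.29, 6.79 and 6.67 TPM in MI 1 to 3, against 2.12, 1.58 and 1.55 TPM in sham 1 to 3. It rose 4.98-fold from 14 counts over the sham libraries (2.32 ± 0.30, adjusted p = 2.18e-05), and had too few counts to be tested with MI thinned to the sham depth. H2-DMb1 and H2-DMb2 shared 22.7% and 25.9% of their 50-base stretches with other genes, mostly with each other, so reads could be divided between them. The log2 ratio of H2-DMa to H2-Ab1 was -3.67 ± 0.03 in MI and -3.88 ± 0.14 in sham, higher in every MI library (exact permutation p = 0.1, adjusted p = 0.111, n = 3 each).

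The chains of H2-O, which inhibits H2-DM and is known mainly from B cells, moved in opposite directions. H2-Oa, named after its values were seen, had 5.15, 7.59 and 6.86 TPM in MI 1 to 3, against 1.40, 1.95 and 1.04 TPM in sham 1 to 3. H2-Ob had 3.21, 2.51 and 2.91 TPM in MI 1 to 3, against 5.35, 6.30 and 4.34 TPM in sham 1 to 3. Neither gene had overlapping groups, and their log2 fold changes were 2.31 ± 0.42 and -0.74 ± 0.20 (adjusted p = 3.39e-04 and 0.00551). The counts behind them were low, 223 over MI and 9 over sham for H2-Oa, and 254 and 86 for H2-Ob; H2-Oa had too few counts to be tested without MI 2 or without MI 3, and H2-Ob was not called with MI thinned to the sham depth. H2-Oa also shared 15.5% of its 50-base stretches with the transcript BC051537. The log2 ratio of H2-Ob to H2-Oa, chosen after values were seen, was -1.17 ± 0.46 in MI and 1.90 ± 0.19 in sham. Chains of the B cell receptor, markers of B cells, were read beside it, and their part in the result was not tested. Cd79a had 1.2, 0.71 and 0.64 TPM in MI 1 to 3, against 5.40, 6.13 and 5.45 TPM in sham 1 to 3, and was called lower. Cd79b had 5.67, 8.58 and 8.60 TPM in MI 1 to 3, against 5.79, 2.88 and 4.13 TPM in sham 1 to 3, and was called higher.

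Dendritic cell markers, which mark the other main class II cells, moved both ways. Of 9 tested, 4 were higher and 3 lower, near the 36.4% of all genes called higher and 36.9% called lower. These markers summed to 113 to 114 TPM in MI and 86.5 to 116 TPM in sham, with none at 0 in all libraries of a group. Itgax, an integrin of dendritic cells and of some macrophages, had 49.4, 45.7 and 45.8 TPM in MI 1 to 3, against 1.76, 1.80 and 1.56 TPM in sham 1 to 3. Xcr1, a receptor of cross-presenting dendritic cells, had 6.66, 5.82 and 5.18 TPM in MI 1 to 3, against 0.49, 0.87 and 1.04 TPM in sham 1 to 3. Clec9a, another marker of those cells, had 3.06, 3.2 and 2.81 TPM in MI 1 to 3, against 10.4, 8.07 and 8.77 TPM in sham 1 to 3, and so lay the other way (-1.40 ± 0.17, adjusted p = 1.21e-05). Zbtb46, a dendritic cell factor also made by endothelium, had 10.5, 7.99 and 8.74 TPM in MI 1 to 3, against 48.5, 43.9 and 55.6 TPM in sham 1 to 3. The T and NK cell markers were low, with 7 genes summing to 1.92 to 2.47 TPM in MI and 0.92 to 3.33 TPM in sham; Cd3e was at 0 counts in MI, and Cd3g, Nkg7 and Ncr1 in sham. The 1 marker of that list with enough counts to be tested, Cd5, was called higher (2.29 ± 0.66, adjusted p = 0.008), with 75 counts over MI and 3 over sham.

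Class I partners rose in part. B2m, the light chain of all class I molecules, was the most abundant member and had 5887, 5466 and 5213 TPM in MI 1 to 3, against 4544, 4878 and 4852 TPM in sham 1 to 3. Its call (0.37 ± 0.07, adjusted p = 5.09e-04) was lost scaled to total counts (0.02). Tapbp, which encodes tapasin, the bridge between class I and TAP, had 309, 313 and 309.8 TPM in MI 1 to 3, against 189, 196 and 202 TPM in sham 1 to 3. It rose 1.78-fold (0.83 ± 0.08, adjusted p = 1.56e-06), although 23.2% of its 50-base stretches also occurred in other annotated genes, mostly Gm19412. Tapbpl, the tapasin relative TAPBPR, which edits peptides apart from TAP, had 20.4, 18.7 and 19.2 TPM in MI 1 to 3, against 39.1, 31.7 and 33.0 TPM in sham 1 to 3. It fell 1.59-fold (-0.67 ± 0.11, adjusted p = 2.13e-04), so that both tapasin relatives changed, in opposite directions. Erap1, which trims peptides in the endoplasmic reticulum, had 49.8, 28.9 and 35.1 TPM in MI 1 to 3, against 47.4, 47.2 and 44.9 TPM in sham 1 to 3, and did not pass (adjusted p = 0.301). Without MI 1, its highest library, it was called lower, at a log2 fold change of -0.30.

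Of the chains of the TAP transporter, Tap1 rose and Tap2 did not pass. Tap1 had 63.7, 66.5 and 68.0 TPM in MI 1 to 3, against 41.0, 40.4 and 35.7 TPM in sham 1 to 3. Tap2 had 63.3, 67.5 and 65.2 TPM in MI 1 to 3, against 85.8, 78.0 and 86.3 TPM in sham 1 to 3. Tap1 rose 1.89-fold (0.92 ± 0.10, adjusted p = 5.51e-06), whereas Tap2 was at -0.19 ± 0.10 (adjusted p = 0.103) and was called lower on TPM, scaled to total counts, with the stricter filter, with MI thinned to the sham depth and without MI 2. The log2 ratio of Tap2 to Tap1 was -0.02 ± 0.04 in MI and 1.10 ± 0.16 in sham, so Tap2 exceeded Tap1 in every sham library and the levels per length were about equal in MI. The difference was -1.11 (exact permutation p = 0.1, adjusted p = 0.111, n = 3 each). Psmb9, across the short region shown above from Tap1, had 74.8, 88.5 and 90.4 TPM in MI 1 to 3, against 95.8, 108 and 93.2 TPM in sham 1 to 3. Its log2 ratio to Tap1, chosen after values were seen, was 0.35 ± 0.10 in MI and 1.34 ± 0.10 in sham. Of the 50-base stretches of Psmb9, 4.19% also occurred in Tap1 transcripts or their reverse complements.

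**Figure D4:**
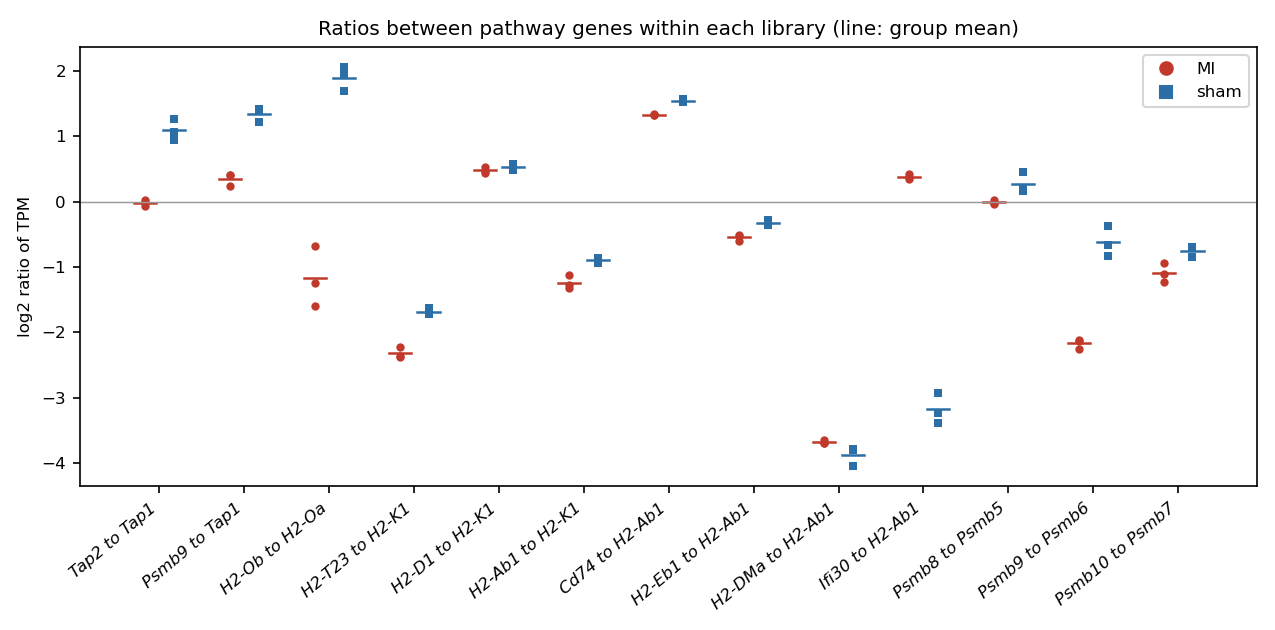
Log2 ratio of TPM between pairs of pathway genes in 3 MI libraries (circles) and 3 sham libraries (squares), with lines at the group means; the ratios do not depend on library scaling. Groups overlap for H2-D1 to H2-K1 and for no other pair shown, with wide gaps for Ifi30 to H2-Ab1, H2-Ob to H2-Oa, Psmb9 to Psmb6 and Tap2 to Tap1. The pairs Ifi30 to H2-Ab1, H2-Ob to H2-Oa and Psmb9 to Tap1 were chosen after values were seen. Of all single genes tested, 32.6% had all MI above all sham libraries in TPM and 43.0% all below. How many pairs of other genes would not overlap was not counted.

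Immunoproteasome subunits, which replace the standard catalytic subunits after interferon gamma, mostly did not pass, and 4 of 5 genes of the standard set rose. Psmb8 had 169, 209.5 and 202 TPM in MI 1 to 3, against 158, 172 and 151 TPM in sham 1 to 3, and was called higher (0.44 ± 0.12, adjusted p = 0.00632) but not scaled to total counts. Psmb10 had 116, 145 and 140.3 TPM in MI 1 to 3, against 144, 141 and 134 TPM in sham 1 to 3, and Psmb9 and Psmb10 had log2 fold changes of -0.05 ± 0.13 and 0.11 ± 0.12. Psme1 and Psme2 encode the subunits of the activator PA28. Psme1 had 309, 377 and 358 TPM in MI 1 to 3, against 364, 366 and 356 TPM in sham 1 to 3. Psme2 had 272, 305 and 305 TPM in MI 1 to 3, against 337, 299 and 307 TPM in sham 1 to 3. The groups overlapped for both, and neither passed. Without MI 1, 4 of these 5 genes were called higher. The standard set had a median log2 fold change of 0.72, and those that rose included Psmb6 (1.49 ± 0.14), Psme3 of the activator PA28 gamma (0.84 ± 0.09) and Psmb5 (0.72 ± 0.13).

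Each immune subunit was lower in MI relative to the standard subunit it replaces. Psmb9 made up 18.2 ± 0.836% in MI and 39.5 ± 3.81% in sham of the TPM of the pair with Psmb6. Psmb8 made up 49.8 ± 0.484% in MI and 54.7 ± 2.78% in sham of the pair with Psmb5. Psmb10 made up 32.0 ± 2.21% in MI and 37.3 ± 1.29% in sham of the pair with Psmb7 (SD, n = 3 each). The log2 ratios differed by -1.55, -0.28 and -0.34, with no overlap between groups in any of the 3 (exact permutation p = 0.1 each, adjusted p = 0.111, n = 3 each).

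Both transactivators rose from low levels. Nlrc5 (GRCm38.p6 chr8:94434335-94527272), the activator of class I genes, had 15.9, 11.1 and 13.2 TPM in MI 1 to 3, against 3.33, 3.85 and 4.59 TPM in sham 1 to 3. It rose 3.89-fold and was called in all fits (1.96 ± 0.15, adjusted p = 2.25e-07), with no overlap. Ciita, the activator of class II genes, had 1.44, 0.83 and 1.31 TPM in MI 1 to 3, against 0.55, 0.76 and 0.71 TPM in sham 1 to 3. Its call (0.89 ± 0.30, adjusted p = 0.0173) rested on 28 counts over the sham libraries and was lost scaled to total counts, without MI 3 and without sham 1. On TPM it was too low to be tested. Cd1d1, which shows lipids to NKT cells, had 11.5, 10.1 and 10.2 TPM in MI 1 to 3, against 12.4, 10.3 and 12.7 TPM in sham 1 to 3, and Mr1, which shows vitamin B metabolites to MAIT cells, had 12.0, 7.86 and 9.30 TPM in MI 1 to 3, against 11.1, 12.7 and 15.4 TPM in sham 1 to 3. Both overlapped between groups and did not pass (adjusted p = 0.61 and 0.173), and Mr1 was called lower without MI 1 (-0.36). H2-Ke6, which encodes a steroid dehydrogenase, had 31.6, 40.9 and 35.7 TPM in MI 1 to 3, against 56.2, 47.4 and 46.5 TPM in sham 1 to 3, with no overlap. It did not pass (adjusted p = 0.106), but was called lower on TPM, scaled to total counts, with MI thinned to the sham depth and without MI 2 (-0.45).

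Other genes of the pathway were described from lists of their own. Of 7 genes of class II processing and turnover in the table, 6 rose and none fell (median 1.99), led by the lysosomal proteases Ctsb (12.5-fold), Ctss, which cuts the invariant chain (12.8-fold), and Lgmn (12.0-fold). Ctss had 5722, 5219 and 5642 TPM in MI 1 to 3, against 492, 493 and 463 TPM in sham 1 to 3. All 5 general chaperones of the endoplasmic reticulum rose (median 1.43), among them Hspa5 (2.85-fold), Calr (2.78-fold) and Pdia6 (2.69-fold); Calr and Pdia3 (2.05-fold) belong to the class I loading complex. Among 7 genes of the class II enhanceosome, the complex that recruits CIITA, none rose and 3 fell (median -0.29): Nfyb (-0.74 ± 0.13), Creb1 (-0.48 ± 0.14) and Rfxap (-0.48 ± 0.15).

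Genes of interferon gamma signalling were split, with 6 higher and 2 lower of 9 tested (median 0.63). Irf1, a factor that binds the response elements of class I genes, fell 3.06-fold and had 126, 133 and 134 TPM in MI 1 to 3, against 445, 452 and 424 TPM in sham 1 to 3. Jak2, a receptor kinase, rose 3.71-fold, and Irf8, a factor of myeloid cells, 3.39-fold. Ifng itself, too scarce to test, had 0.25, 0.07 and 0.07 TPM in MI 1 to 3, against 0, 0 and 0 TPM in sham 1 to 3. Of 8 tested genes listed as receptors for MHC molecules, 6 rose and none fell. Those with the smallest p encode the myeloid inhibitory receptors Pirb, which binds class I (6.97-fold), Pilra (6.42-fold) and Lilrb4a (5.56-fold). Pilra and Lilrb4a are not established as receptors for MHC molecules, so the count is of the list and not of such receptors. The NK cell receptor genes Klrd1, part of the receptor for Qa-1, and Klrk1 were also called higher, from 1 count and 0 counts over the sham libraries. Klrd1 had 5.50, 4.76 and 6.58 TPM in MI 1 to 3, against 0.57, 0 and 0 TPM in sham 1 to 3. Klrk1 had 1.95, 2.55 and 1.89 TPM in MI 1 to 3, against 0, 0 and 0 TPM in sham 1 to 3. These lists were read beside 36.4% of all genes higher and 36.9% lower, and in the same libraries the macrophage markers had a median of 2.24.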

How the data were processed

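The authors deposited estimated counts per gene, with decimals, and TPM (a level per transcript length), per the file headers. Their FPKM and scaled counts were not used, and no source used here gives an aligner, counter or annotation. GRCm38.p6 and Agilent Feature Extraction 9.1 are named per the submitters' processing notes. Estimated counts were rounded to whole numbers, filtered with filterByExpr (minimum count 10), TMM-scaled and compared, MI against sham, over all 13370 genes kept, with edgeR 4.0.16 in R 4.3.3 by its quasi-likelihood test, Benjamini-Hochberg threshold 0.05, no covariate. Alternatives used DESeq2 1.42.0, limma 3.58.1 (log2(TPM + 1), genes with 1 TPM in 3 libraries, and voom), RLE factors, total counts, no or a stricter filter (1 CPM in a group and 100 counts), MI thinned to 3415315 counts, a replicate block and each library left out. Ratios of TPM between 2 genes were compared over the 6 libraries by exact two-sided permutation tests. Ratios of other gene pairs were not counted, so a lack of overlap in a ratio has no background share beside it. Counts of 13370 genes were also simulated at these library sizes, with 200 genes changed and the same spread for all genes. There 82.5% of 2-fold and 46.6% of 1.5-fold changes were recovered. In the data 73.3% of genes were called, which makes the adjusted threshold easier to pass, so these shares do not give the power of this comparison. Depth followed the group, so sham libraries set the precision, and 3 counts stood for 0.742 to 0.828 CPM in sham and 0.156 to 0.159 CPM in MI. The members, gene lists and marker lists were chosen with earlier results of these data known. Values in every library are given for B2m, Cd74, Nlrc5 and Ciita, for the 3 members of each group with the highest mean TPM, and for the 3 with the largest log2 fold change at 5 CPM or more in the higher group; of each pathway list the 3 with the smallest p are named. Others named were chosen after their values were seen. Promoter windows came from RefSeq (GRCm38.p6), and transcripts for shared 50-base stretches from GENCODE M21. A stretch counted as shared where it occurred in a transcript of another gene or in the reverse complement of one. Shares therefore include overlap with genes on the opposite strand.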

Additional observations from a re-analysis of the deposited data

How the results depend on the processing

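Scaling to total counts changed most. It gave 13 members higher and 13 lower, 3 class II members higher and 2 lower, 2 class I partner and immunoproteasome members higher and 5 lower, and 4 non-classical members lower. The log2 fold change changed sign there for H2-T23 (-0.15), H2-Eb1 (-0.064), Cd74 (-0.058), Psme1 (-0.24), Psme2 (-0.28), Psmb10 (-0.24) and Cd1d1 (-0.26). On log2(TPM + 1), 9 members were lower, 4 of them non-classical, 2 class II and 2 class I partner or immunoproteasome members, and Psme1 (-0.062), Psme2 (-0.10), Psmb10 (-0.065) and Cd1d1 (-0.14) changed sign. With MI thinned, 20 of 37 tested members were higher and 5 lower, where 4185 of all 11899 genes tested were higher and 4411 lower. Of these 5 members, 1 was non-classical, 0 class II and 2 class I partner or immunoproteasome members, and Psme2 was at -0.014. The stricter filter gave 2 lower in that last group. H2-Q4 changed sign with DESeq2 (0.025), RLE factors (0.011) and no filter (0.025), H2-Aa likewise (0.039, 0.025 and 0.040), and Psmb9 with DESeq2 (0.0067) and no filter (0.0069). The cause was not tested.

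With each library left out in turn, 17 to 26 members were higher and 2 to 5 lower. Of the 12259 to 14047 genes tested in those fits, 4284 to 5012 were higher and 4312 to 4913 lower. Among class I partner and immunoproteasome members 4 to 7 were higher and 1 to 2 lower, with 4 to 6 class II members higher and 0 to 1 non-classical members lower. Log2 fold changes ran from -0.074 to 0.068 for H2-Q4, -0.15 to 0.023 for H2-T22, -0.073 to 0.087 for H2-Aa, -0.0032 to 0.19 for Psme2 and -0.13 to 0.091 for Psmb9. Over 15 alternatives, single members kept direction and call in 492 fits, lost a call in 29, gained one in 32 and changed sign in 27. The replicate block gave 22 members higher and 2 lower, as without it. Libraries of the same number did not deviate together (r = -0.07, -0.04 and 0.0001 for numbers 1 to 3), so no pairing by number was seen. With shallow sham libraries, whose deviations hold much counting noise, the check cannot exclude a pairing.

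Sham libraries were shallower, which limits members with few sham counts (H2-Oa, H2-DMb2, H2-T-ps, H2-Q1, H2-Q10, Ciita). Group, depth and marker levels cannot be told apart. With 3 libraries a group, exact permutation p-values cannot go below 0.1.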
